A study of Mus musculus with 22 samples.

Results

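Liver metastases of mouse pancreatic neuroendocrine tumours were compared with metastasis-like primary tumours of the pancreas over all genes measured. The members were chosen by their tissue label alone, which gave 3 liver metastases and 5 metastasis-like primaries, 8 of the 22 arrays of the series. All 22 samples, both compared groups included, carry the RT2 (RIP1-Tag2) genotype, in which the rat insulin promoter drives the T antigen of a virus in pancreatic beta cells. The other 14 samples are normal, hyperplastic and angiogenic islets and islet tumours. They enter the main fit only to share the estimate of each gene's spread. In fits that add the title prefix or a mean gene level as a further term, they also help to set the effect of that term. No treatment, time point or age separates the 2 groups in the sources used here. The labels do not say how a primary tumour was put in the metastasis-like class, nor whether samples came from separate animals. The p-values therefore measure only the spread between these samples, which may be technical. All 3 metastases carry the title prefix I, which among the primaries only primary 1 carries. Within the 2 groups, prefix and group can therefore be told apart through that array only. The fit with the prefix as a block also draws on the other 14 samples, among them islet tumours with prefixes I, II and III.

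A tumour that grows in the liver is surrounded by hepatocytes, which make most plasma proteins, bile acids and urea, and by the liver's own macrophages (Kupffer cells) and sinusoidal endothelium. A tumour that grows in the pancreas is surrounded by acinar cells, which make digestive enzymes. RNA from whole tissue pieces mixes tumour cells with whatever lies beside or within them. In such bulk samples fewer cells of a type and less RNA per cell cannot be told apart.

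Values are log2 levels on Affymetrix Mouse Gene 1.0 ST arrays, as the authors normalized them, and differences are metastases minus primaries with their standard error (SE). A difference of 1 log2 is a doubling. A gene was called where the adjusted p was below 0.05. Comparisons against primary 1 alone set the metastases against a single array, so a call can be lost there while the difference stays the same. Across genes, pairs of metastases correlated at 0.9914 to 0.9951, pairs of primaries at 0.9753 to 0.9915, and a metastasis with a primary at 0.9515 to 0.9722. Of 19938 genes tested, 3126 were called (15.7%), 1556 higher in the metastases (7.8%) and 1570 lower (7.87%). The counts of each list below are to be read beside these 2 shares. Without metastasis 2 the count fell to 1950, and without metastasis 3 to 1988. The levels of 2268 genes (11.4%) lay higher in every metastasis than in every primary, and those of 2349 (11.8%) lower. Large differences were few. At least 1 log2 separated the groups for 298 of the higher and 156 of the lower genes, and at least 2 log2 for 101 and 37.

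The islet origin that the labels give was visible in both groups. Ins2, an insulin gene, stood at 10.26, 10.22 and 10.53 in the metastases and at 9.87, 10.29, 10.38, 10.28 and 10.01 in the primaries. The groups overlapped, and the difference of 0.17 ± 0.10 was not called (adjusted p = 0.277). Against primary 1 alone, the lowest of the primaries, it was 0.47 and called (adjusted p = 0.0434). Iapp, the islet amyloid hormone that beta cells secrete with insulin, lay between 12.25 and 12.86 in the metastases and between 11.93 and 12.75 in the primaries. Chga, the granule protein chromogranin A, lay between 11.66 and 12.05 in the metastases and between 11.71 and 12.40 in the primaries, and its difference of -0.29 ± 0.12 was not called (adjusted p = 0.099). Chga was called lower without primary 4 (-0.38, adjusted p = 0.0088), without metastasis 1 (-0.41, adjusted p = 0.0363), against primary 1 alone (-0.59, adjusted p = 0.0351) and with array weights (-0.36, adjusted p = 0.00877).

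Most measured genes of hepatocyte function were higher in the metastases. Of 207 measured members of 10 hepatocyte lists, 170 were called higher in the metastases (82.1%, against 7.8% of all genes) and 3 lower, with a median difference of 1.3 against -0.015 over all genes. Of the 298 genes called higher by at least 1 log2, 124 stood on these lists (41.6%) and 154 on none of the 56 lists (51.7%), and of the 101 called higher by at least 2 log2, 69 stood on them (68.3%). The mean level of the 207 genes was 8.24, 7.98 and 7.86 in metastases 1, 2 and 3. In the primaries it lay between 6.40 and 6.52, and in the 5 islet tumours between 6.34 and 6.47. The metastases thus stood clear of both kinds of pancreatic tumour on this measure. Single lists set the primaries apart from the islet tumours in both directions: the mean of the plasma carriers was 7.05 to 7.34 in the primaries and 6.53 to 6.68 in the islet tumours, and that of the conjugation genes 5.94 to 6.03 and 6.15 to 6.38.

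**Figure D1:**
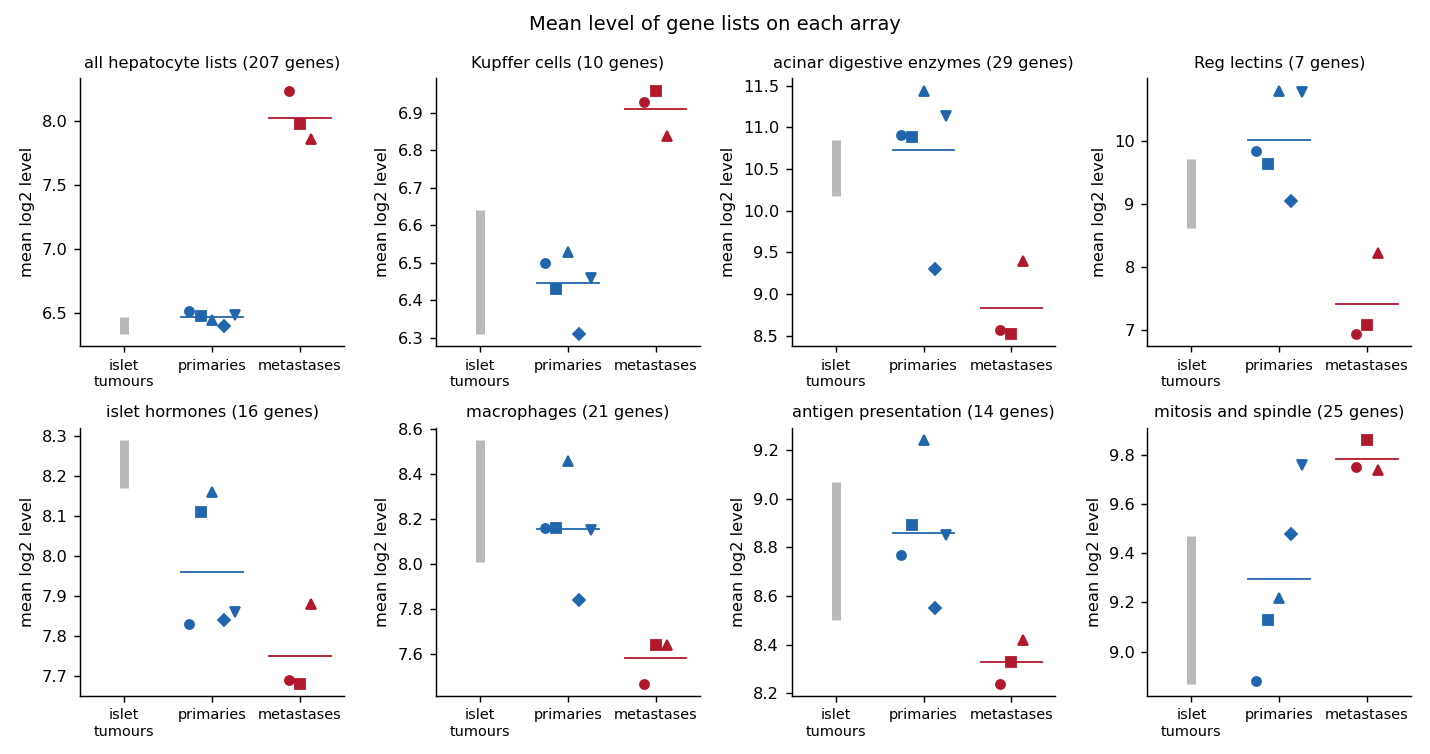
Mean log2 level of 8 gene lists on each array (y axes, each with its own range). Blue points are the 5 metastasis-like primaries and red points the 3 liver metastases, circle, square, triangle, diamond and inverted triangle standing for samples 1 to 5. Horizontal lines are group means and grey bars the range of the 5 islet tumours. The hepatocyte mean separates the groups (7.86 to 8.24 against 6.40 to 6.52), while in the acinar panel primary 4 (9.30) lies below metastasis 3 (9.39).

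Within the metastases the hepatocyte genes kept a common order. Of the 170 called higher, 151 were highest in metastasis 1 (88.8%, against 30.2% of all genes) and 120 were lowest in metastasis 3 (70.6%, against 39.2%). The same holds in part for other genes: of 174 genes called higher by at least 1 log2 that stood on none of the hepatocyte lists, 110 were highest in metastasis 1 (63.2%). Because the hepatocyte mean is higher in all metastases than in any primary, it is nearly the same variable as the group. With that mean as a covariate no gene was called by limma's moderated test, 1557 genes had an unadjusted p below 0.05, against 5484 without it, and the median SE rose from 0.11 to 0.44. The part of hepatocyte RNA in the differences of other genes was not tested beyond this.

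Secreted plasma proteins were among the largest rises. Hpx, the haem carrier haemopexin, stood at 11.69, 11.50 and 11.39 in the metastases and at 6.57, 6.37, 6.15, 6.35 and 6.34 in the primaries, a difference of 5.17 ± 0.26 (36.0-fold, adjusted p = 1.23e-11). The primaries lay in the range of the islet tumours (6.38 to 6.60) or just below it. Hp, the haemoglobin carrier haptoglobin, read 11.34, 11.29 and 10.96 against 6.59 to 7.13, a difference of 4.44 ± 0.19. Vtn, the adhesive plasma protein vitronectin, rose by 3.18 ± 0.15. In all, 23 of 29 measured plasma carriers were called higher and none lower.

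Albumin (Alb), the most abundant plasma protein, spread widely among the primaries. It stood at 13.16, 13.08 and 12.89 in the metastases, and at 9.67, 8.20, 7.61, 11.78 and 9.68 in primaries 1 to 5. The islet tumours lay between 6.04 and 8.24, so that 3 of the 5 primaries were above all of them. Primary 4, the highest of the primaries in Alb, had the lowest mean of the 207 hepatocyte genes among them (6.40). The difference of 3.66 ± 0.82 was called (adjusted p = 0.00381), but not against primary 1 alone (3.38, adjusted p = 0.151) nor with the acinar mean as a covariate (2.79, adjusted p = 0.0808). Ttr, transthyretin, is made by hepatocytes and by islet cells. It was high everywhere, at 12.76 to 12.88 in the metastases and 12.47 to 12.74 in the primaries, and its difference of 0.22 ± 0.14 was not called (adjusted p = 0.365). Trf, the iron carrier transferrin, was chosen after its values were seen. It read 12.34 to 12.56 in the metastases and 11.87, 10.52, 10.22, 10.68 and 10.98 in the primaries, all of them above the islet tumours (8.60 to 9.22). Its difference of 1.59 ± 0.27 was called (adjusted p = 0.000276), but against primary 1 alone it was 0.57 (adjusted p = 0.348).

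**Figure D2:**
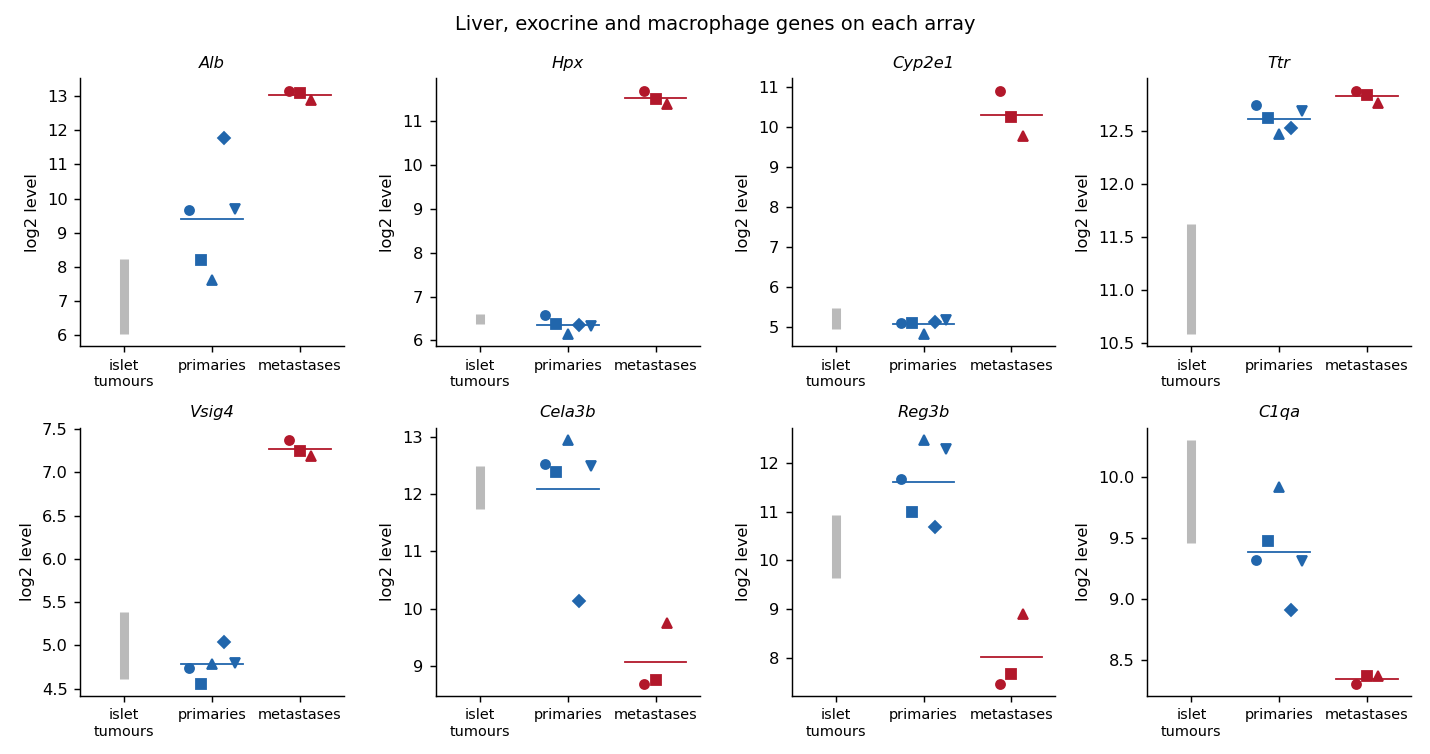
Log2 level of 8 genes on each array, with the same points, group lines and grey islet tumour ranges as in the plot of list means. Hpx and Cyp2e1 are near the islet tumour level in all 5 primaries, Alb spreads from 7.61 to 11.78 among them, and Ttr is at 12.47 or above in all 8 samples.

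Lipoprotein and clotting genes separated the groups as well. Apob, the scaffold protein of very low density lipoprotein, stood at 10.19, 9.71 and 9.41 in the metastases and between 5.68 and 5.99 in the primaries, a difference of 4.0 ± 0.18 (adjusted p = 3.94e-12). Apoa1, the main protein of high density lipoprotein, read 11.80, 11.47 and 11.16 against 9.26, 8.15, 7.79, 7.51 and 7.75, with primary 1 the highest of the primaries. The difference was 3.39, and 2.22 against primary 1 alone. Of the 15 apolipoprotein genes measured, 13 were called higher and none lower. Among 21 clotting genes 20 were called higher and 1 lower, the latter not without primary 1, primary 3, metastasis 2 or metastasis 3. Fgb, the beta chain of fibrinogen, stood at 10.88, 10.65 and 10.41 against 5.73 to 5.99 (4.75 ± 0.33). F2, prothrombin, rose by 2.83 ± 0.15, and Serpinc1, the inhibitor antithrombin, by 2.37 ± 0.18. F13b, the carrier subunit of clotting factor 13, read 7.27, 6.85 and 7.01 against 4.67 to 5.10 (2.18 ± 0.14). Of 19 complement genes 13 were called higher and none lower. Hc, complement component 5, stood at 8.79, 8.61 and 8.34 against 5.18 to 5.45 (3.22 ± 0.12, adjusted p = 6.66e-13). Serpinc1 and F13b were chosen after their values were seen.

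The promoters of 3 of these genes are shown because the genes moved together and each window holds a core of the site bound by HNF1, a homeodomain factor of liver, kidney, gut and pancreas. Sequences are from RefSeq on GRCm38.p6 and cover the 250 bases before the gene's start, 5′ to 3′ on the gene's own strand, with the matched motif in capitals.
Fgb, chr3:83049864-83050113, minus strand: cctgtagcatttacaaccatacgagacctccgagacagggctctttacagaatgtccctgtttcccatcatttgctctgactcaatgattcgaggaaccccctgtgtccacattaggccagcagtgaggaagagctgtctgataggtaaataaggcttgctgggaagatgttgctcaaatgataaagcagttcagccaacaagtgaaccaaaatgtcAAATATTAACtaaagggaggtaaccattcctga
Hc, chr2:35061413-35061662, minus strand: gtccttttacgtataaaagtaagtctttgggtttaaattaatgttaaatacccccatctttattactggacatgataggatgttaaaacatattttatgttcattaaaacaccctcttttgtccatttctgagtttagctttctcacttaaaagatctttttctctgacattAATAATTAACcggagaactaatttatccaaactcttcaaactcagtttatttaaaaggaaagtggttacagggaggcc
F13b, chr1:139501457-139501706, plus strand: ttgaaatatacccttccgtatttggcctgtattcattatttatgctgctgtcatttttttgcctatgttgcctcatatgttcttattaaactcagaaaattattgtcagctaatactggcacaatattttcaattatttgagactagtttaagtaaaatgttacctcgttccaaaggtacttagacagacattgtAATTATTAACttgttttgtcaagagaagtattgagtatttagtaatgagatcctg
The motif searched, on both strands, was GTTAAT, then any 2 bases, then TT, and in all 3 windows the match lies on the opposite strand. It begins 33 bases before the start in Fgb, 78 in Hc and 55 in F13b. Of the 170 hepatocyte list genes called higher, 135 had 163 promoters in the table. The motif was in 10 of these promoters (6.13%), against 308 of all 32851 (0.938%) and 1 of 24 promoters of acinar enzyme genes (4.17%). Of the other motifs searched, CAAAGTCCA, a repeat bound by HNF4, was in 3 of the 163 (1.84%, against 0.384%) and in 1 of the acinar 24 (4.17%). TTGCGCAA, a palindrome bound by C/EBP factors, was in 1 (0.613%, against 0.164%), and the TATA box letters TATAAA were in 40 (24.5%, against 12.4%) and in 8 of the acinar 24 (33.3%). The palindrome was in none of the acinar 24. Matches of the HNF1 core and the TATA box shared letters in 2 of the 32851 promoters, and those of the other pairs in 0. A match is a description of the window and not a bound site.

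The metabolic machinery of hepatocytes rose as a block. Of 30 genes of cytochrome P450 and bile acid synthesis, 29 were called higher and none lower, with a median difference of 1.73. Cyp2e1, which oxidizes ethanol and small solvents, stood at 10.91, 10.25 and 9.78 in the metastases and at 5.11, 5.11, 4.84, 5.13 and 5.18 in the primaries. Its difference (5.24 ± 0.42, 37.7-fold, adjusted p = 1.16e-08) was the largest among called genes, with predicted genes, olfactory and vomeronasal receptors and small RNAs not ranked. Cyp3a11, a drug-oxidizing enzyme, read 9.87, 9.16 and 8.91 against 3.99 to 4.46 (5.14 ± 0.36). Of 24 conjugation and detoxification genes 23 were called higher, led by the carboxylesterase Ces1c (5.15 ± 0.38). Of 23 genes of urea synthesis and amino acid breakdown 21 were called higher. Cps1, which starts the urea cycle, stood at 10.20, 9.71 and 9.57 against 5.62 to 5.84 (4.09 ± 0.23), and Tdo2, which opens the breakdown of tryptophan, rose by 3.52 ± 0.19. Arg1, the arginase that releases urea, was chosen after its values were seen. It read 9.0, 8.82 and 8.23 against 7.36, 6.92, 6.36, 6.48 and 6.46 (1.97 ± 0.19).

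Transport and glucose genes rose as well. Pck1, the gatekeeping enzyme of gluconeogenesis, rose by 2.24 ± 0.17, and 8 of the 10 genes of its list were called higher, a count that fell to 5 without metastasis 1 or metastasis 2. Of 18 membrane carriers 13 were called higher. Slc10a1, which takes up bile acids from blood, rose by 2.15 ± 0.20 and was chosen after its values were seen. Abcc2, which exports conjugates into bile, rose by 2.48 ± 0.13. Fabp1, the liver fatty acid binding protein, stood at 8.31, 7.38 and 7.33 against 4.63 to 5.0 (2.91 ± 0.27).

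Regulators of liver genes had smaller differences than most hepatocyte products. Among 18 liver-enriched transcription factors 7 were called higher and 2 lower, with a median of 0.22 and no difference above 0.92. Without primary 1, primary 3, metastasis 2 or metastasis 3 there was 1 lower. Nr1i3, the xenobiotic receptor CAR, had that largest rise, from 6.0 to 6.26 in the primaries to 7.25, 7.03 and 6.86 in the metastases (0.92 ± 0.10). Hnf4a, a nuclear receptor of hepatocytes that beta cells also express, was chosen after its values were seen. It read 9.32, 9.05 and 8.96 against 8.96, 8.66, 8.53, 8.41 and 8.76, and the groups met at 8.96. Its call (0.44 ± 0.10, adjusted p = 0.004) was lost against primary 1 alone (0.15, adjusted p = 0.627) and with the title prefix as a block (0.33, adjusted p = 0.118). Prox1, a homeobox factor of hepatocytes, islets and lymphatic endothelium, was lower in every metastasis (8.04 to 8.20 against 8.56 to 8.86, -0.60 ± 0.09, adjusted p = 6.83e-05).

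**Figure D3:**
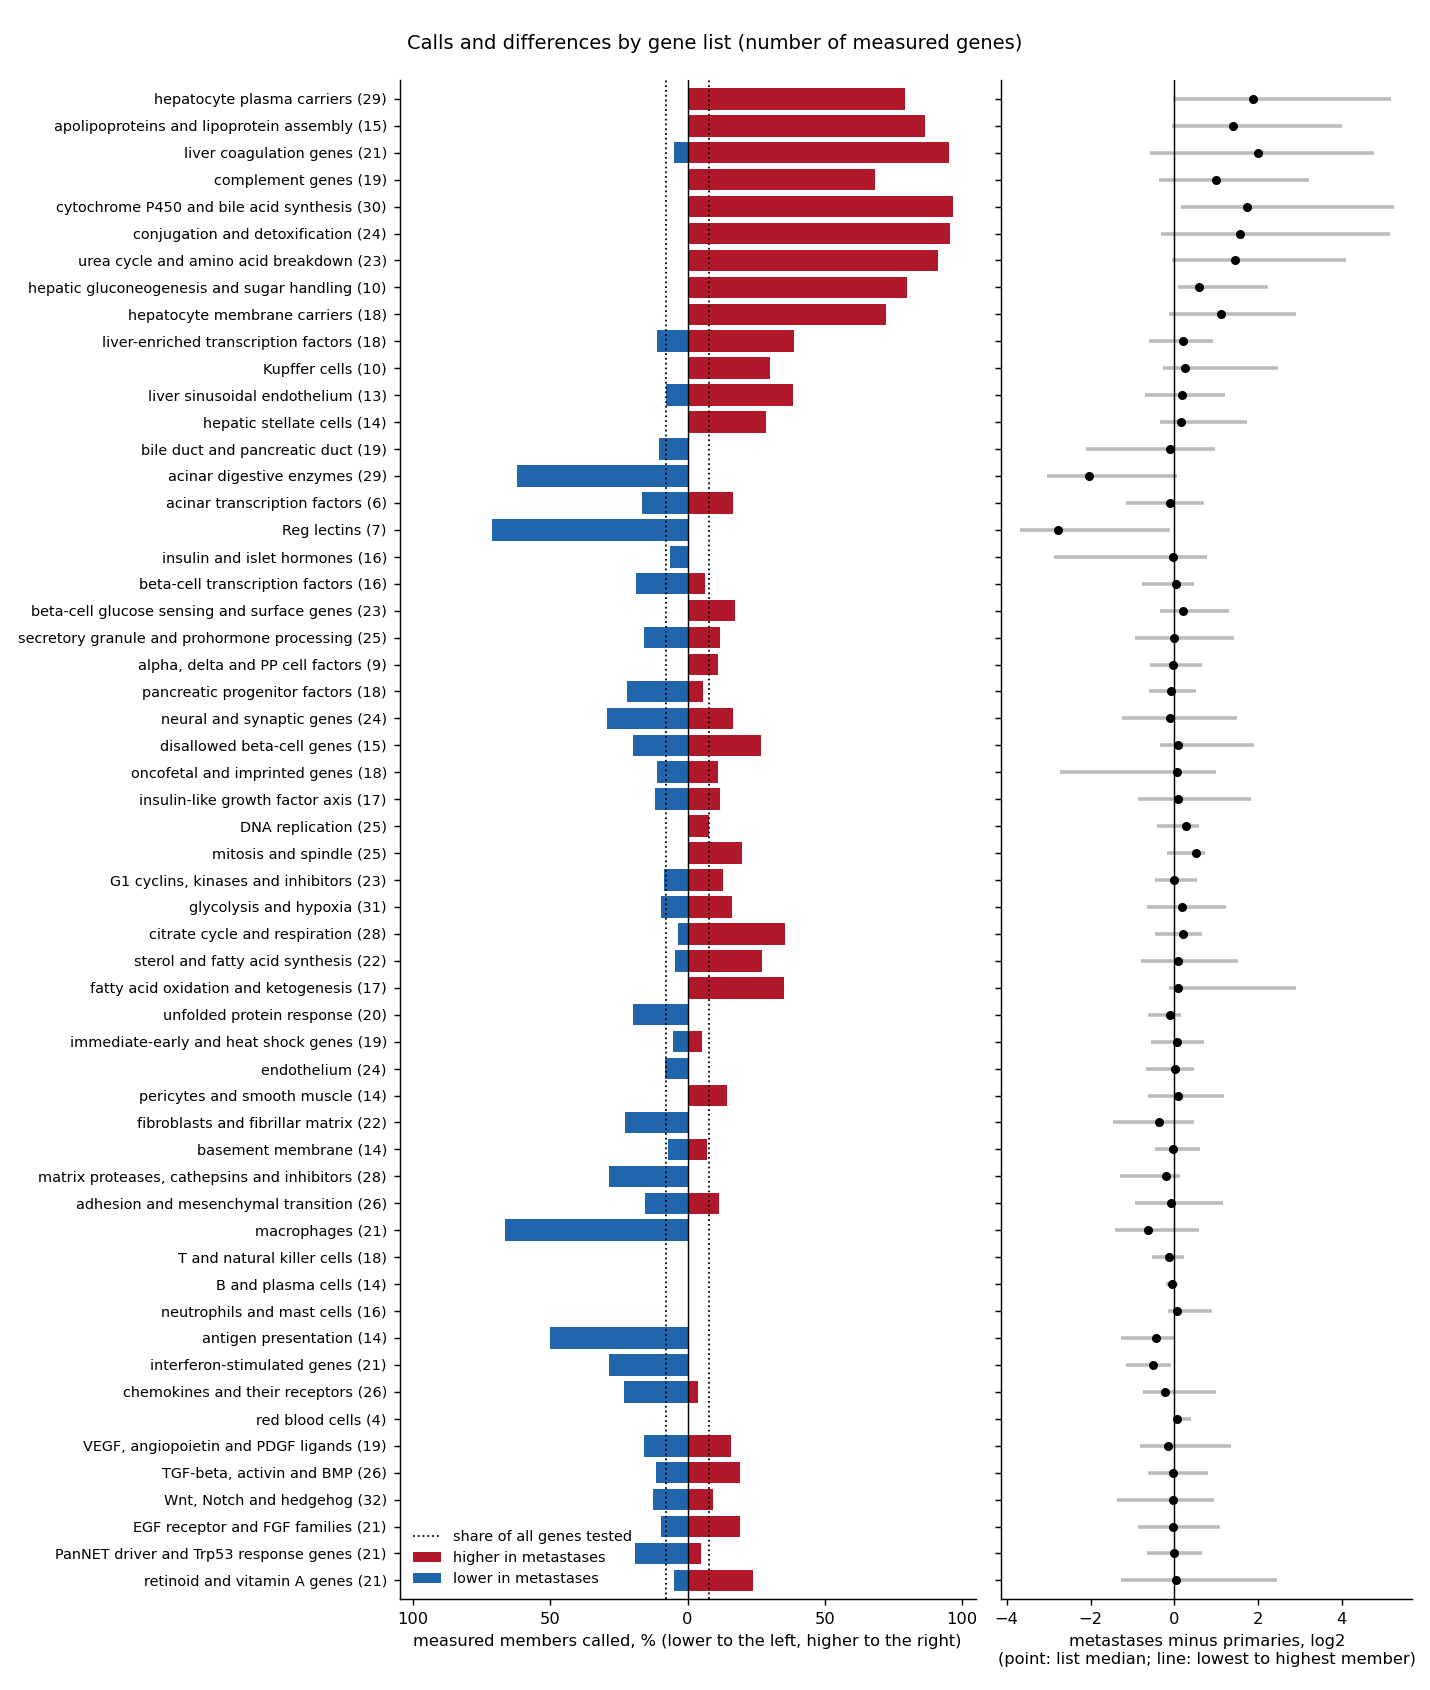
The 56 gene lists, with the number of measured genes in brackets. Left, the percentage of measured members called higher (red) or lower (blue) in the metastases, with dotted lines at the share of all genes tested (7.8% and 7.87%). Right, the median difference of each list in log2 (point) and its lowest to highest member (line). The 9 lists of hepatocyte products stand far to the right, and the acinar, Reg and macrophage lists to the left.

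Against primary 1 alone, the array that shares the title prefix of the metastases, counts of calls were mostly smaller. The count of higher genes fell by a factor above 1.5 in 27 of the 41 lists that had any, and that of lower genes in 29 of 36. With the block this held for 14 of 41 and 16 of 36 lists, and with the acinar covariate for 13 of 41 and 22 of 36.

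The cells that line the liver's vessels were represented by some of their markers. Vsig4, a complement receptor of Kupffer cells, stood at 7.37, 7.25 and 7.19 in the metastases and at 4.74, 4.56, 4.79, 5.04 and 4.80 in the primaries (2.48 ± 0.20, 5.59-fold, adjusted p = 7.87e-09). Clec1b, a lectin receptor that Kupffer cells share with platelets and liver endothelium, rose by 0.85 ± 0.15. Other Kupffer markers differed by less than Vsig4, and not all were called. Marco, a scavenger receptor, read 6.54 to 6.69 in the metastases against 6.73 to 7.05 in the primaries (-0.22 ± 0.15, adjusted p = 0.365). Cd5l, a secreted macrophage protein, read 7.03 to 7.07 against 6.15 to 6.74 (0.62 ± 0.28, adjusted p = 0.144), and was called in a fit of the 8 compared arrays alone (adjusted p = 0.015). Marco and Cd5l were chosen after their values were seen. In all, 3 of 10 Kupffer genes were called higher (30.0%, against 7.8% of all genes), Vsig4, Clec1b and Clec4f, and none lower. The count was 2 without primary 2, 3 or 4 and without metastasis 1 or 2, with 1 lower without primary 4. At an unadjusted p below 0.05, 5 were higher and none lower.

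Sinusoidal endothelial genes were split. Of 13 measured, 5 were called higher and 1 lower, with 3 lower without primary 4 and 2 higher and 0 lower against primary 1 alone. Clec4g, a lectin of liver sinusoids, stood at 8.02, 7.76 and 7.72 against 6.33 to 6.82 (1.21 ± 0.17, adjusted p = 4.07e-05), although the other probe set of this gene was not called (0.00, adjusted p = 0.987). Stab2, a hyaluronan scavenger receptor chosen after its values were seen, read 7.74, 7.64 and 7.38 against 6.62 to 6.82 (0.88 ± 0.20). Oit3 rose by 0.71 ± 0.13. Stab1, a scavenger receptor that macrophages also carry, went the other way, at 7.49 to 7.57 against 7.82 to 8.75 (-0.70 ± 0.12). Against primary 1 alone the calls of Stab2 (adjusted p = 0.125), Oit3 (adjusted p = 0.116) and Stab1 (adjusted p = 0.0676) were lost. Lyve1, a hyaluronan receptor of lymphatic and sinusoidal endothelium chosen after its values were seen, was not called (0.10 ± 0.21, adjusted p = 0.825). Of 14 stellate cell genes 4 were called higher, 2 without metastasis 1, and none was called against primary 1 alone.

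Exocrine genes of the pancreas were lower in the metastases. They made up 23 of the 156 genes called lower by at least 1 log2 (14.7%) and 20 of the 37 called lower by at least 2 log2 (54.1%). Of 29 digestive enzyme genes 18 were called lower (62.1%, against 7.87% of all genes) and none higher, with a median of -2.03. The mean of the 29 was 8.57, 8.52 and 9.39 in metastases 1 to 3 and 10.91, 10.88, 11.44, 9.30 and 11.13 in primaries 1 to 5. Primary 4 lay below metastasis 3, so the groups overlapped through these 2 samples. The count of calls turned on single arrays. It was 26 without primary 4, 5 without primary 3, 7 without primary 2, 8 without primary 1, 9 without primary 5, 2 without metastasis 1, 2 without metastasis 2, 10 without metastasis 3 and 0 against primary 1 alone, where the median was still -2.29.

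Cela3b, a pancreatic elastase, showed the shape of the group. It stood at 8.69, 8.75 and 9.75 in the metastases and at 12.53, 12.38, 12.94, 10.13 and 12.49 in the primaries, a difference of -3.03 ± 0.72 (adjusted p = 0.00607). Its call held when any 1 of the 8 arrays was left out, but not against primary 1 alone (-3.46, adjusted p = 0.0838). Spink1, the trypsin inhibitor of acinar cells, read 5.30, 5.63 and 6.39 against 8.79, 9.10, 10.37, 6.25 and 9.26 (-2.98 ± 0.62, adjusted p = 0.00225), with primary 4 below metastasis 3. Zg16, a zymogen granule lectin, differed by -2.98 ± 0.83 and lost its call without metastasis 1 (adjusted p = 0.0763) or metastasis 2 (adjusted p = 0.0821). Ctrb1, chymotrypsinogen B, differed by -1.58 ± 0.42 (adjusted p = 0.0123) and lost its call without metastasis 1 (adjusted p = 0.0602) or metastasis 2 (adjusted p = 0.0696). Cpa1, carboxypeptidase A, lay between 10.96 and 11.74 against 12.96, 12.98, 13.12, 11.76 and 13.07, and its difference of -1.54 ± 0.55 was not called (adjusted p = 0.062). It was called without primary 4 (-1.80, adjusted p = 0.0288), with the block, with quantile normalization, with array weights and in the fit of the 8 arrays alone (adjusted p from 0.00761 to 0.0444). Acinar enzymes were thus read in the metastases as well, Cpa1 at 10.96 or above in all 3.

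With the mean of the acinar genes of each array as a covariate, 1888 genes were called in place of 3126, 1052 higher and 836 lower. The acinar genes themselves enter that mean, so their own calls under it are not read. Rbpjl, a transcription factor of acinar cells that does not enter the mean, stood at 6.99 to 7.19 in the metastases and at 7.80, 8.33, 9.17, 7.30 and 8.55 in the primaries (-1.15 ± 0.30, adjusted p = 0.0103). Its call was lost with the covariate (-0.38, adjusted p = 0.331) and against primary 1 alone (-0.72, adjusted p = 0.43). Ptf1a, its partner in acinar cells, was not called (-0.42 ± 0.15, adjusted p = 0.0593), but was without primary 4 (adjusted p = 0.0156) and without metastasis 2 (adjusted p = 0.0368).

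The Reg lectins, secreted proteins that acinar and gut cells make after injury and inflammation, had a larger median difference than the enzymes. Of 7 measured 5 were called lower and none higher, with a median of -2.78, and 3 were called without metastasis 1 or without metastasis 2. With the acinar covariate 2 of the 7 were called lower, Reg3b among them, and the median was -0.43. Against primary 1 alone the median was -2.63. Reg3b stood at 7.47, 7.67 and 8.89 in the metastases and at 11.67, 10.99, 12.47, 10.68 and 12.29 in the primaries (-3.61 ± 0.54, 12.2-fold lower, adjusted p = 6.07e-05). In the islet tumours it lay between 9.64 and 10.93 and in normal islets between 6.12 and 8.13. Primary 4, low in the enzymes, was above all metastases in Reg3b. The part of acinar RNA in the Reg differences was not tested beyond the covariate. Reg3g read 5.35, 5.61 and 7.09 against 9.04, 9.06, 10.94, 8.55 and 10.90 (-3.69 ± 0.62, adjusted p = 0.000276), and missed the threshold against primary 1 alone (adjusted p = 0.0766). Reg3a differed by -2.94 ± 0.61, and lost its call against primary 1 alone (adjusted p = 0.177) and with the acinar covariate (-1.53, adjusted p = 0.0808). Dmbt1, a secreted mucosal scavenger protein chosen after its values were seen, stood at 9.12, 9.18 and 10.40 against 12.46, 12.07, 12.72, 10.81 and 12.54 (-2.55 ± 0.48). All 7 Reg genes were highest in metastasis 3 among the metastases, as were 24 of the 29 enzymes, against 35.6% of all genes. Members of these lists are not independent within an array.

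Of 19 genes of bile and pancreatic ducts 2 were called lower (10.5%, near the 7.87% of all genes) and none higher, with 1 lower without primary 2, 3 or 5 or any 1 of the metastases. Muc1, an epithelial mucin, read 6.21, 6.25 and 6.72 against 7.73, 7.56, 8.91, 6.94 and 8.42 (-1.52 ± 0.34), and its call was lost against primary 1 alone (adjusted p = 0.176) and with the acinar covariate (adjusted p = 0.135). Krt19, a duct keratin, read 5.78 to 6.06 against 6.32 to 7.53 and was not called (-0.96 ± 0.36, adjusted p = 0.0742), though it was in the fit of the 8 arrays alone (adjusted p = 0.023) and with array weights (adjusted p = 0.0159).

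Of 16 islet hormone genes only Gal was called, a share near that of all genes called lower. Gal encodes the neuropeptide galanin. It stood at 6.88, 6.51 and 6.74 in the metastases and at 9.78, 10.35, 10.08, 8.91 and 8.80 in the primaries, a difference of -2.88 ± 0.32 (7.34-fold lower, adjusted p = 1.24e-06). The metastases lay inside the ranges of the islet tumours (6.09 to 6.95) and normal islets (5.94 to 7.02), and all 5 primaries lay above both. Sst, somatostatin of delta cells, read 6.72 to 6.79 against 6.93 to 7.50 (-0.50 ± 0.22, adjusted p = 0.132), and was called in the fit of the 8 arrays alone (adjusted p = 0.024) and with array weights (adjusted p = 0.0322). Of 9 factors of alpha, delta and PP cells 1 was called.

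Beta-cell regulators split. Of 16 measured, 1 was called higher and 3 lower, shares of 6.25% and 18.8% against 7.8% and 7.87% of all genes. Without primary 2, primary 3, metastasis 1 or metastasis 3, 1 was called lower. Rfx3, a ciliogenic factor needed for beta-cell maturation, stood at 7.84, 7.93 and 7.87 in the metastases and between 8.60 and 8.69 in the primaries (-0.77 ± 0.07, adjusted p = 1.91e-07). Pdx1, the homeobox activator of the insulin gene, read 7.36, 7.40 and 8.01 against 6.73, 7.10, 7.27, 7.38 and 7.05 (0.48 ± 0.16, adjusted p = 0.0378). Its call was lost without metastasis 3 (0.28, adjusted p = 0.321), without primary 1, 2 or 5 (adjusted p from 0.0595 to 0.0966), with the 8 arrays alone (adjusted p = 0.0955), with the block (adjusted p = 0.0538) and with the acinar covariate (adjusted p = 0.117). Both groups lay far below the islet tumours (9.60 to 10.13). Nkx6-1, another beta-cell homeobox factor, was not called (-0.34 ± 0.20, adjusted p = 0.303) and was highest in primary 4 (8.50).

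Among 23 genes of glucose sensing and the beta-cell surface 4 were called higher (17.4%, against 7.8% of all genes) and none lower. Without metastasis 3, 2 were called. Slc2a2, the glucose transporter of beta cells and hepatocytes, stood at 8.46, 8.34 and 9.06 against 6.56, 7.42, 7.41, 7.81 and 7.32 (1.31 ± 0.33, adjusted p = 0.00953), and lost its call without metastasis 3 (1.09, adjusted p = 0.076) and with the acinar covariate (adjusted p = 0.0901). Among the metastases it was highest in metastasis 3, as were 35.6% of all genes, and in islet tumours it lay between 8.63 and 10.52. Which cells carry its difference was not tested. Sstr2, a somatostatin receptor, read 8.21, 7.53 and 8.11 against 6.80 to 7.74, with primary 4 above metastasis 2 (0.83 ± 0.17, adjusted p = 0.00143). Against primary 1 alone (adjusted p = 0.0905) and with the acinar covariate (adjusted p = 0.0537) it was not called.

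Granule genes moved in both directions, 3 of 25 higher and 4 lower, with 1 lower without metastasis 2 and 5 higher without primary 4. Vgf, a precursor of secreted neuropeptides, stood at 9.55, 9.10 and 9.61 against 8.37, 7.38, 7.31, 8.90 and 8.01 (1.42 ± 0.26, adjusted p = 0.000718), and against primary 1 alone the call was lost (1.05, adjusted p = 0.152). Scg3, a granule sorting protein, read 10.66 to 10.86 against 9.94, 9.63, 9.97, 10.70 and 9.0 (0.91 ± 0.21), and was lost in the fit of the 8 arrays alone (adjusted p = 0.0647), with the block (adjusted p = 0.0591), against primary 1 alone (adjusted p = 0.175) and with the acinar covariate (adjusted p = 0.106). Pcsk1, the convertase of proinsulin, was chosen after its values were seen. It stood at 10.65, 10.76 and 11.54 against 10.22, 9.20, 9.08, 11.71 and 9.26, not called with primary 4 (1.09 ± 0.40, adjusted p = 0.0723) and called without it (1.54, adjusted p = 0.000175) or with array weights (1.15, adjusted p = 0.0061). Pcsk1n, an inhibitor of that convertase, fell, at 10.53 to 10.80 against 11.19 to 11.90 (-0.94 ± 0.14, adjusted p = 8.75e-05).

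Outside the liver and exocrine lists other genes differed as strongly as many within them. Of the 101 genes called higher by at least 2 log2, 30 stood on none of the 56 lists (29.7%). Slc38a1, Neurod6, Gucy2c, Efhd1, Nrn1, Bex1 and Lrrk2 were chosen after their values were seen, among rises of genes that are on none of the lists. Slc38a1, a sodium-coupled glutamine transporter, stood at 10.93, 10.86 and 10.83 in the metastases and at 6.93, 7.20, 8.85, 8.47 and 8.25 in the primaries (2.93 ± 0.40, 7.64-fold, adjusted p = 2.26e-05). Its second probe set differed by 3.34. Neurod6, a neuronal basic helix-loop-helix factor, read 8.21, 7.62 and 8.31 against 5.74, 5.45, 4.58, 5.31 and 4.60 (2.91 ± 0.21, adjusted p = 2.94e-09). In islet tumours it lay between 3.87 and 4.30. Gucy2c, the gut receptor for guanylin peptides, stood at 10.03, 9.81 and 9.85 against 6.68 to 7.39 (2.79 ± 0.18, adjusted p = 6.21e-10). Here the islet tumours (8.40 to 9.46) lay between the groups.

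Efhd1, a calcium-binding mitochondrial protein, stood at 9.11, 8.95 and 8.94 against 6.08, 6.06, 6.08, 6.16 and 6.96 (2.73 ± 0.19, adjusted p = 1.70e-09), with primary 5 the highest of the primaries. Nrn1, the neurite-promoting protein neuritin, read 10.20, 10.83 and 10.86 against 9.17, 8.94, 8.13, 5.62 and 7.04 (2.85 ± 0.49), and lost its call against primary 1 alone (1.46, adjusted p = 0.244). Bex1, a small protein of neurons and endocrine cells, read 11.24 to 11.37 against 9.40 to 10.01 (1.45 ± 0.14). Lrrk2, a kinase mutated in some forms of Parkinson's disease, read 9.55 to 9.82 against 7.18 to 8.64 (1.94 ± 0.26). With the hepatocyte mean as a covariate none of these was called. The estimates were 4.22 for Slc38a1, 2.89 for Neurod6, 2.07 for Gucy2c, 2.23 for Efhd1, 2.42 for Nrn1, 1.53 for Bex1 and 2.84 for Lrrk2. The adjusted p was 0.512 for Neurod6, 0.783 for Nrn1 and 0.576 for the others. That mean parts the groups, so these estimates have wide errors (median SE over all genes 0.44) and do not separate it from the group.

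**Figure D4:**
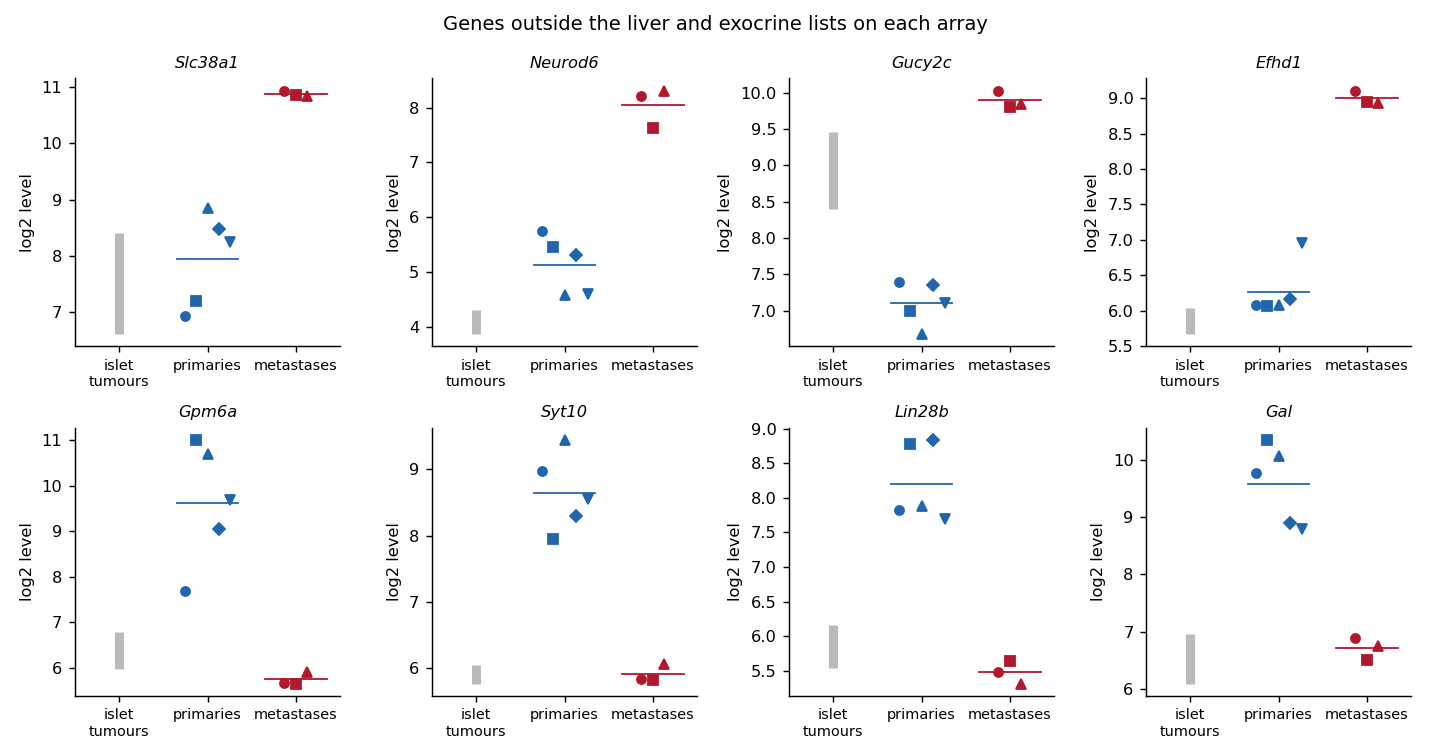
Log2 level of 8 genes outside the liver and exocrine lists on each array, with the same points, group lines and grey islet tumour ranges as in the plot of list means. In Gpm6a, Syt10, Lin28b and Gal the metastases lie in or near the range of the islet tumours and the primaries above it, and in Neurod6 and Efhd1 the metastases lie above both.

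Large falls were also found outside the exocrine lists. Of the 156 genes called lower by at least 1 log2, 116 stood on none of the 56 lists (74.4%). Of the 37 called lower by at least 2 log2, 14 did (37.8%). Gpm6a, a neuronal membrane glycoprotein, had the largest fall among called genes, with predicted genes, olfactory and vomeronasal receptors and small RNAs not ranked. It stood at 5.67, 5.65 and 5.90 in the metastases against 7.69, 11, 10.70, 9.06 and 9.68 in the primaries (-3.89 ± 0.45, 14.8-fold lower, adjusted p = 2.34e-06). Syt10, a calcium sensor of secretory vesicles, stood at 5.84, 5.82 and 6.07 against 8.98, 7.95, 9.44, 8.30 and 8.56 (-2.74 ± 0.21, adjusted p = 4.63e-09). The metastases lay below the islet tumours in Gpm6a (5.98 to 6.78) and inside or just above their range in Syt10 (5.77 to 6.05). Further falls were chosen after their values were seen. They were Frmd3 (-2.15 ± 0.18), Brinp1, a nerve cell protein (-1.79 ± 0.12), Sv2b, a synaptic vesicle glycoprotein (-1.92 ± 0.32), Nrxn3, a synaptic adhesion protein (-1.52 ± 0.20), Kcnq3, a potassium channel (-1.50 ± 0.18), and Dcc, the netrin receptor (-1.44 ± 0.20). In each of these 6 genes every metastasis lay below every primary, as in 11.8% of all genes. The 6 were picked as falls, so this follows closely from the choice.

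The neural and synaptic list was itself split, with 4 of 24 genes called higher (16.7%) and 7 lower (29.2%), against 7.8% and 7.87% of all genes. Without metastasis 1 there were 4 lower, and without metastasis 2 there were 2 higher. Elavl4, a neuronal RNA-binding protein, fell from 8.28 to 8.60 in the primaries to 7.0, 7.26 and 7.20 in the metastases (-1.24 ± 0.11, adjusted p = 7.6e-08). Nrxn2 (-0.69 ± 0.09), a neurexin, and Celf4 (-0.62 ± 0.09), a splicing regulator, fell too. Nefl, the light neurofilament chain, rose, at 8.06, 8.55 and 7.99 against 6.03, 6.64, 6.01, 7.66 and 7.14 (1.50 ± 0.31), and was not called with the acinar covariate (adjusted p = 0.0612). It was chosen after its values were seen.

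Oncofetal and imprinted genes were called in both directions, 2 of 18 higher and 2 lower (11.1% each, against 7.8% and 7.87% of all genes), with 1 higher without primary 2, 3 or 5 or without metastasis 1 or 2. Lin28b, an RNA-binding protein that blocks the maturation of let-7 miRNAs, stood at 5.49, 5.64 and 5.32 in the metastases and at 7.83, 8.77, 7.88, 8.83 and 7.70 in the primaries (-2.72 ± 0.24, 6.59-fold lower, adjusted p = 3.74e-08). The metastases were near the islet tumours (5.55 to 6.16). Grb10, an imprinted adaptor that restrains insulin receptor signalling, read 7.44, 7.07 and 6.99 against 9.04, 8.37, 8.36, 7.98 and 9.91 (-1.57 ± 0.28). Igf2, a growth factor known for its rise in RT2 islet tumours, was chosen after its values were seen. It overlapped, at 8.34, 8.35 and 9.44 against 7.94 to 8.75 (0.41 ± 0.32, adjusted p = 0.455), and both groups lay below the islet tumours (10.62 to 11.22).

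Its receptor and some of its carriers differed. Igf1r, the receptor kinase, fell to 6.45, 6.72 and 6.95 from 7.41 to 7.76 (-0.87 ± 0.14, adjusted p = 0.000143). Igfbp1, a carrier that hepatocytes secrete, rose to 8.95, 8.28 and 8.39 from 6.19 to 7.02 (1.82 ± 0.16). Igfbp3, a carrier that vessel and liver lining cells secrete, fell to 8.10, 7.93 and 8.07 from 8.63 to 9.23 (-0.80 ± 0.12). Of the 17 genes of this axis 2 were called higher and 2 lower (11.8% each, near the 7.8% and 7.87% of all genes).

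The imprinted region between Dlk1 and Dio3 was examined gene by gene after its values were seen. Its maternal copy yields the long noncoding RNAs Meg3 and Rian and a large cluster of miRNAs. Of 103 genes that RefSeq places there 48 were measured. Of these, 15 were called higher (31.2%, against 7.8% of all genes) and none lower. Without primary 2 there were 7, without metastasis 1 there were 8 and without metastasis 3 there were 6, while without primary 4 there were 19. With the block there were 5, with the acinar covariate 3 and against primary 1 alone 0, the last with a median of 0.35 in place of 0.28. Rian stood at 10.07, 10.12 and 10.21 in the metastases and at 9.16, 9.09, 9.05, 9.64 and 8.73 in the primaries (1.00 ± 0.25, adjusted p = 0.00838), and was lost with the block (0.58, adjusted p = 0.232), against primary 1 alone (adjusted p = 0.177) and with the acinar covariate (adjusted p = 0.0945). Dlk1, a paternally expressed Notch-like protein, read 9.50, 10.12 and 10.39 against 8.47, 8.49, 8.49, 11.34 and 8.87. Primary 4 exceeded every metastasis. Dlk1 was not called with it (0.87 ± 0.51, adjusted p = 0.289) and was without it (1.42, adjusted p = 0.0061) or with array weights (1.08, adjusted p = 0.0387). The mean of the 48 genes was 6.85, 6.81 and 7.03 in the metastases, 6.96 in primary 4 and 6.42 to 6.55 in the other primaries.

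The miRNA genes with the clearest difference were Mir380 and Mir329. Mir380 stood at 7.15, 7.05 and 7.63 against 6.08, 5.83, 6.05, 6.72 and 6.11 (1.12 ± 0.26, adjusted p = 0.0048), and Mir329 at 8.11, 8.01 and 8.28 against 7.24, 7.12, 7.39, 7.58 and 7.17 (0.83 ± 0.19, adjusted p = 0.00445). Neither was called against primary 1 alone (adjusted p = 0.0982 and 0.0932) or with the acinar covariate (adjusted p = 0.0793 and 0.0856). Total RNA was labelled by a whole-transcript method, and which form of these transcripts the probe sets read was not tested. The mature sequences that RefSeq gives for the pair (GRCm38.p6) are shown to identify them, 5′ to 3′, with the seed (bases 2 to 8) in capitals.
mmu-miR-380-5p: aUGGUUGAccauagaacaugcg
mmu-miR-380-3p: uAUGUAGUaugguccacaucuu
mmu-miR-329-5p: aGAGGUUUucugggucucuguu
mmu-miR-329-3p: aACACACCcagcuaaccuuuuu
No 2 of these 4 seeds are the same.

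**Figure D5:**
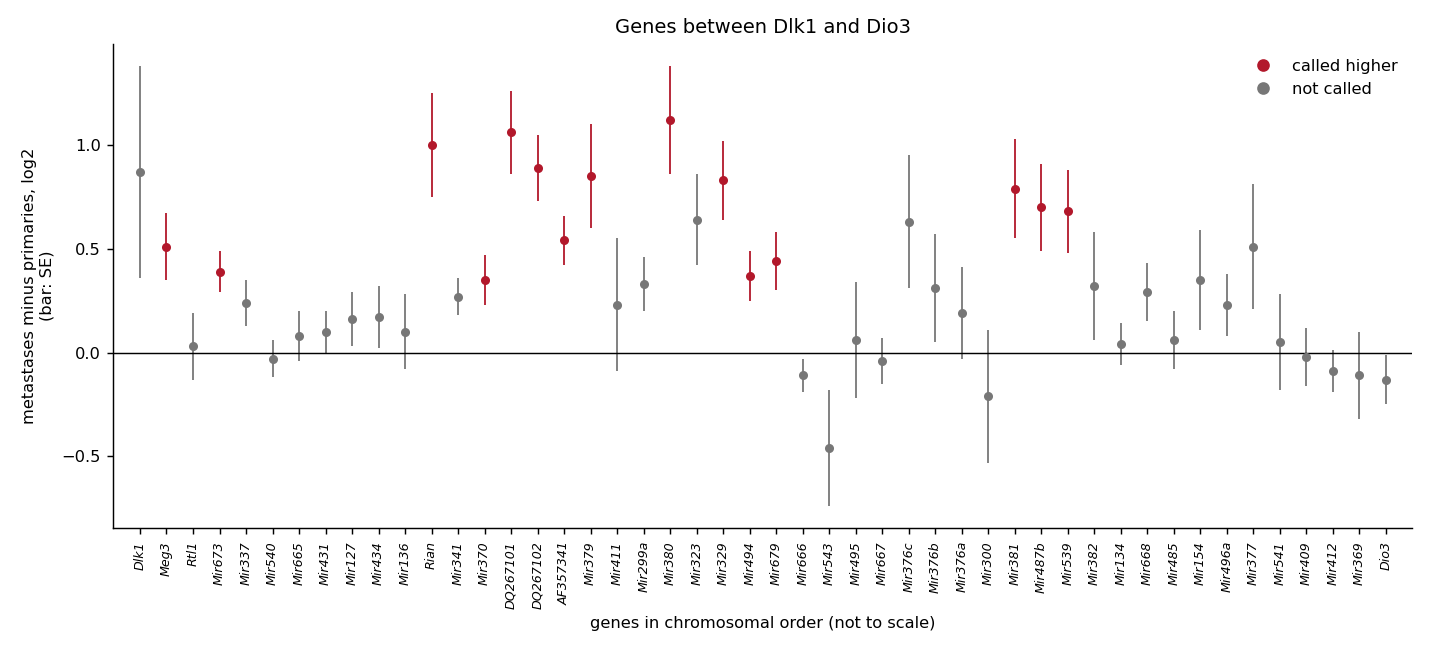
Difference between metastases and primaries in log2 (y axis, bars are SE) for the 48 measured genes from Dlk1 to Dio3, in chromosomal order and not to scale. Red points are the 15 genes called higher and grey points those not called, with the highest at Mir380 (1.12 ± 0.26).

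Mitosis and DNA replication genes were called higher or not at all, in numbers that moved with the setting. Mki67, a marker of cycling cells, stood at 11.03, 11.11 and 10.83 against 10.24, 10.48, 10.67, 11.05 and 11.15 (0.27 ± 0.32, adjusted p = 0.643). Primary 4 was in the range of the metastases and primary 5 just above it. Of 25 mitosis genes 5 were called higher and none lower, with a median of 0.53. Without primary 5 there were 15, without primary 4 there were 8, without primary 3 there were 2, and without primary 1 or 2, or any 1 of the metastases, there was 1. With the block there were 14 (median 0.80), with median centring 9, with the acinar covariate or quantile normalization 3 and against primary 1 alone 4. Every metastasis lay above every primary in 12 of the 25 (11.4% of all genes did so). Cdc20, an activator of the anaphase promoting complex, read 9.17 to 9.27 against 8.36, 8.44, 8.29, 8.76 and 9.02 (0.63 ± 0.16, adjusted p = 0.00837). Of 25 DNA replication genes 2 were called higher, with 9 with the block, 5 without primary 5, 4 against primary 1 alone, 1 without metastasis 3 and none without metastasis 2. Ccne1, the cyclin that starts replication, read 9.25 to 9.36 against 8.47 to 9.14 (0.52 ± 0.13, adjusted p = 0.00832). It belongs to another list, that of G1 cyclins, kinases and inhibitors, which was called in both directions. Of the 23 genes measured there, 3 were called higher and 2 lower, with a median of -0.01. Without metastasis 3 there were 1 higher and 0 lower, and without primary 4 there were 4 higher and 4 lower.

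Metabolic genes outside the liver lists changed by less. Of 28 genes of the citrate cycle and respiration 10 were called higher and 1 lower, with a median of 0.22, and the 10 became 4 without metastasis 3, 5 without metastasis 2, 6 without primary 2 and 1 against primary 1 alone. Cox5a, a subunit of cytochrome oxidase, rose by 0.65 ± 0.14. The pair of stearoyl desaturases split. Scd1, the main hepatic form, stood at 8.42, 7.96 and 8.05 against 6.51, 6.26, 7.23, 6.19 and 6.97 (1.51 ± 0.28), whereas Scd2, the form of brain and many tumours, stood at 8.86, 8.85 and 9.0 against 9.58 to 9.97 (-0.79 ± 0.16). The call of Scd2 was lost against primary 1 alone (adjusted p = 0.0932). Sqle, the squalene epoxidase of sterol synthesis, rose by 0.78 ± 0.13. Epas1, the hypoxia-inducible factor HIF-2 alpha, read 9.60 to 9.65 against 8.03, 8.0, 8.15, 9.17 and 8.52 (1.24 ± 0.20, adjusted p = 0.000132), while Vegfa, a target of such factors, was not called (-0.01 ± 0.12, adjusted p = 0.983). Hmox1, haem oxygenase, fell to 7.98, 8.37 and 8.04 from 9.48 to 10.04 (-1.68 ± 0.20, adjusted p = 5.31e-06) and was chosen after its values were seen. Aldh1a1, a retinaldehyde dehydrogenase of liver, rose by 2.45 ± 0.20, and its relative Aldh1a2, the form of mesenchyme and mesothelium, fell to 5.70 to 5.88 from 6.65 to 7.52 (-1.27 ± 0.18).

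Macrophage genes were lower in the metastases, although the Kupffer marker Vsig4 was higher. Of 21 measured 14 were called lower (66.7%, against 7.87% of all genes) and none higher, with a median of -0.62. Lyz2, the lysozyme of myeloid cells, stood at 8.87, 9.20 and 9.23 against 10.80, 10.38, 10.99, 9.98 and 10.44 (-1.42 ± 0.25, adjusted p = 0.000465). C1qa, a complement chain that macrophages secrete, read 8.31 to 8.37 against 8.91 to 9.92 (-1.04 ± 0.17, adjusted p = 0.000259). In both the groups did not overlap and the calls held with any 1 array left out. Tyrobp, a signalling adaptor of myeloid cells, differed by -0.70 ± 0.14, with adjusted p of 0.0571 against primary 1 alone and 0.059 with the acinar covariate. Adgre1, the macrophage surface protein F4/80, differed by -0.77 ± 0.21 (adjusted p = 0.0165) and lost its call without metastasis 1 (adjusted p = 0.0791) or metastasis 2 (adjusted p = 0.0543). The count of 14 became 8 without metastasis 1, 9 with the block and 3 with the acinar covariate. The median was -0.65 with the block, -0.41 with the covariate and -0.57 against primary 1 alone. The macrophage mean was lowest among the primaries in primary 4 (7.84), the array with the lowest acinar mean.

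Antigen presentation and interferon genes lay lower too. Of 14 antigen presentation genes 7 were called lower and none higher, with a median of -0.44. Cd74, the invariant chain of class II molecules, stood at 7.35, 7.54 and 7.85 against 8.32, 8.79, 9.60, 8.39 and 8.80 (-1.20 ± 0.28, adjusted p = 0.00567). H2-Ab1, a class II beta chain, differed by -1.28 ± 0.32 (adjusted p = 0.00866). The calls of Cd74 and H2-Ab1 were lost with the block (adjusted p = 0.162 and 0.15), against primary 1 alone (adjusted p = 0.384 and 0.316) and with the acinar covariate (adjusted p = 0.138 and 0.205), and that of H2-Ab1 also without metastasis 1 (adjusted p = 0.0582). The list's 7 calls became 2 without metastasis 1, 3 without metastasis 2, primary 2 or primary 3, and 4 without metastasis 3. With the block there were 0, and with the acinar covariate 1. The median was -0.36 with the block, -0.24 with the covariate and -0.43 against primary 1 alone. Of 21 interferon-stimulated genes 6 were called lower (28.6%, against 7.87% of all genes) and none higher. Ifih1, a sensor of viral RNA, read 6.55 to 6.65 against 7.09 to 8.12 (-0.96 ± 0.24, adjusted p = 0.00794), and was lost with the block (adjusted p = 0.18) and against primary 1 alone (adjusted p = 0.291). The interferon count was 2 without metastasis 1, 3 without metastasis 2, 1 with the block and 1 with the acinar covariate. The list's median of -0.51 became -0.33 with the block, -0.35 with the covariate and -0.28 against primary 1 alone.

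Lymphocyte genes gave no calls by limma's moderated test. Of 18 genes of T and natural killer cells none was called and 1 had an unadjusted p below 0.05. Of 14 B and plasma cell genes none was called and 1 had an unadjusted p below 0.05. Of 16 genes of neutrophils and mast cells and 4 of red blood cells none was called, and none had an unadjusted p below 0.05. Chemokine genes had 1 of 26 called higher and 6 lower, of which 3 without metastasis 2, 2 without metastasis 3, 1 with the block and 0 against primary 1 alone. As shares of the 26, 3.85% were higher and 23.1% lower, against 7.8% and 7.87% of all genes. The one higher was Cxcr4, the receptor for CXCL12, at 9.96, 9.58 and 9.99 against 8.56, 8.38, 8.93, 8.87 and 9.49 (1.00 ± 0.27, adjusted p = 0.0132). Its call was lost without metastasis 1 (adjusted p = 0.0598) or metastasis 3 (adjusted p = 0.0665) and against primary 1 alone (adjusted p = 0.0791).

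Vessel genes were called about as often as all genes. Of 24 endothelial genes 2 were called lower (8.33%, against 7.87% of all genes) and none higher, with 1 without primary 3, metastasis 1 or metastasis 3 and none without metastasis 2. Pecam1, the endothelial adhesion protein CD31, read 7.85, 8.06 and 8.09 against 7.70 to 8.32 (0.10 ± 0.16, adjusted p = 0.749). Of 22 fibroblast and fibrillar matrix genes 5 were called lower (22.7%, against 7.87% of all genes) and none higher. Without primary 4 there were 10 lower. Mfap5, a microfibril protein, stood at 6.09, 6.30 and 6.66 against 8.0, 7.60, 8.38, 7.28 and 7.78 (-1.46 ± 0.21, adjusted p = 3.94e-05). Thbs2, the matrix protein thrombospondin 2, differed by -0.70 ± 0.15 and was lost with the acinar covariate (adjusted p = 0.0689).

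Of 28 matrix proteases, cathepsins and inhibitors 8 were called lower (28.6%, against 7.87% of all genes) and none higher. There were 4 without metastasis 1 or metastasis 3 and 5 without primary 3. Ctsz, a lysosomal carboxypeptidase, read 10.30, 10.15 and 10.18 against 11.39 to 11.62 (-1.29 ± 0.12, adjusted p = 1.58e-07). Ctsd, the lysosomal protease cathepsin D, read 11.09 to 11.24 against 11.61 to 12.07 (-0.70 ± 0.10). Timp1, an inhibitor of matrix proteases, read 6.44 to 6.58 against 7.02 to 7.72 (-0.94 ± 0.18), with an adjusted p of 0.0906 against primary 1 alone. Macrophages are rich in cathepsins, and the share of the macrophage difference in these falls was not tested.

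Growth factors and their receptors moved in both directions. Fgf1, the acidic fibroblast growth factor, stood at 9.61, 9.04 and 9.26 against 7.70 to 8.19 (1.35 ± 0.15, adjusted p = 1.86e-06). Egfr, the epidermal growth factor receptor, which hepatocytes express strongly, read 7.62 to 7.89 against 6.67 to 7.40 (0.84 ± 0.14). Met, the receptor for hepatocyte growth factor, read 8.19, 7.70 and 7.98 against 6.46 to 7.27 (1.17 ± 0.27, adjusted p = 0.00531). Lgr5, the R-spondin receptor of stem cells and of hepatocytes near the central vein, read 7.27 to 7.55 against 6.21 to 6.57 (0.95 ± 0.14, adjusted p = 3.98e-05). Sfrp1, a secreted Wnt inhibitor, read 5.71, 5.84 and 6.0 against 6.52 to 7.94 (-1.36 ± 0.25), with an adjusted p of 0.0728 against primary 1 alone. Bmp5, a bone morphogenetic protein, rose by 0.80 ± 0.10 and Tgfbr3, the co-receptor betaglycan, differed by -0.63 ± 0.11. Men1, the tumour suppressor most often lost in human pancreatic neuroendocrine tumours, read 8.48 to 8.56 against 9.10 to 9.23, a tight difference of -0.65 ± 0.08 (adjusted p = 1.26e-05). Of 21 driver and Trp53 response genes of such tumours, Men1 among them, 1 was called higher, though none without metastasis 1 or 2, and 4 lower, of which 2 without primary 1, primary 4, metastasis 2 or metastasis 3.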

How the data were processed

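Per the series text, arrays were processed with aroma.affymetrix by the authors, whose deposited values lie on a log2 scale, as their range shows. Per the labels' protocols, total RNA was extracted with TRIzol and biotin-labelled for whole-transcript sense targets. The options and version of that software and the chip definition were not stated in the labels or headers. Of 35511 probe sets, 23410 were listed in the platform's gene table (1621 with several symbols, 21789 with 1) and 12101 were not. The probe set with the highest mean stood for each of 19938 genes (999 had several), with no filter on dim genes. Arrays have no read depth, so their number limits the precision, and the 8 compared arrays had medians from 7.18 to 7.20.

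The fit covered all 22 arrays (limma 3.58.1, R 4.3.3) and gave each group its own mean. It used a moderated two-sided test, Benjamini-Hochberg adjustment over all genes and a call below 0.05. The method was tested on simulated data. Covariates were each array's mean over the hepatocyte lists and over the acinar enzyme list. The comparison against primary 1 alone kept the arrays of title prefix I in the contrast, and primary 1 was assumed to vary like the other groups. Named genes were the 15 largest rises, the 15 largest falls, up to 4 members of each of 56 lists with the smallest adjusted p, and a few fixed genes, of which the text gives those it needs. Predicted genes, olfactory and vomeronasal receptors and small RNAs were skipped in ranking the rises and falls. The members, lists and tests were chosen with earlier results of these data known. Figures were drawn with matplotlib 3.10.9.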

Additional observations from a re-analysis of the deposited data

Results flagged for a closer look

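Values of 1 primary stood apart from the other 4, by Dixon's test at the 95% level (critical ratio 0.710 for 5 samples), in 15 of 126 named genes and in 6 of 57 list means. Chance flags about 1 in 20 groups, and the values of a sample are not independent between genes. No explanation of these values was tested.

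Primary 4 was set apart most often. It was low in the acinar enzymes, with Cela3b at 10.13 (12.38 to 12.94 in the other primaries), Zg16 at 8.84 (11.30 to 12.09), Cpa1 at 11.76 (12.96 to 13.12), Ctrb1 at 12.70 (13.50 to 13.66) and the mean of the list at 9.30 (10.88 to 11.44). The complement mean was also low there, at 6.30 (6.50 to 6.58). It was high in the imprinted gene Dlk1 at 11.34 (8.47 to 8.87), the beta-cell factor Nkx6-1 at 8.50 (7.25 to 7.56) and the desaturase Scd2 at 9.97 (9.58 to 9.66). The mean of the oncofetal and imprinted genes at 8.81 (8.45 to 8.54) and that of glycolysis and hypoxia at 9.27 (8.80 to 8.92) were high as well.

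Primary 3 was high in Igfbp3 at 9.23 (8.63 to 8.77) and in the endothelial gene Pecam1 at 8.32 (7.70 to 7.87). It was low in Bex1 at 9.40 (9.91 to 10.01), Cyp2e1 at 4.84 (5.11 to 5.18) and Clec1b at 5.03 (5.23 to 5.26). Its means of alpha, delta and PP cell factors, at 9.28 (9.45 to 9.50), and of B and plasma cells, at 5.86 (5.99 to 6.03), were the lowest of the primaries.

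Primary 5 was high in Efhd1 at 6.96 (6.06 to 6.16) and in Apob at 5.99 (5.68 to 5.77). In primary 1, Oit3 was high at 6.47 (6.24 to 6.30).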

How the results depend on the processing

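The title prefix, used as the replicate block, is shared by the 2 groups only through prefix I, so the check that numbers pair samples could not be made. With the block 2892 genes were called, 1686 higher and 1206 lower, and 9 of 108 named calls were lost. Quantile normalization, median centring, all probe sets, array weights and a trended and robust variance lost none of the 108, and the fit of the 8 arrays alone lost 3. A filter on dim genes left 97 of the 108, all still called. Array weights gave 5377 calls (2704 higher, 2673 lower), a fold change of at least 1 log2 gave 454 (298 and 156), primary 1 alone gave 1294 (776 and 518) and the acinar covariate gave 1888 (1052 and 836). Leaving out 1 array gave 1950 to 3415 calls, 939 to 1691 higher and 966 to 1724 lower. The cause of these shifts was not tested.

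With the hepatocyte covariate 0 genes were called, 0 higher and 0 lower. The sign turned for Alb (-3.56), Cyp2e1 (-1.70), Slc10a1 (-0.86), Ces1c (-0.69), Trf (-0.63), Serpinc1 (-0.55), Fgb (-0.44), Pck1 (-0.42), Cyp3a11 (-0.40), Apoa1 (-0.22), Nr1i3 (-0.19), Clec4g (-0.13), Oit3 (-0.03) and Meg3 (-0.03), and for Reg3g (1.32), H2-Ab1 (0.75), Cd74 (0.33) and Lyz2 (0.03). The hepatocyte genes enter that mean themselves, and the mean parts the groups, so these estimates have wide errors (median SE 0.44). Median centring moved the share of higher calls from 49.8% to 58.9%.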

Other observations

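Gene lists not described above had calls in few members or in both directions. Of all genes 7.8% were called higher and 7.87% lower. Leaving out 1 of the 8 arrays moved many of these small counts, and ranges over the 8 are given in brackets. Of 20 genes of the unfolded protein response, 4 were called lower and none higher (0 to 4 lower, with 0 without metastasis 2 and 1 without primary 1 or primary 3). Of 31 genes of glycolysis and hypoxia, 5 were called higher and 3 lower (1 to 12 higher and 2 to 4 lower, with 12 higher without primary 4 and 1 without metastasis 2 or metastasis 3). Of 22 sterol and fatty acid synthesis genes 6 were called higher and 1 lower (5 to 7 higher and 1 lower). Of 17 fatty acid oxidation and ketogenesis genes, which hepatocytes use heavily, 6 were called higher and none lower (3 to 6 higher, with 3 without metastasis 1 or metastasis 2). Of 21 retinoid genes 5 were called higher and 1 lower (4 to 5 higher and 1 to 2 lower). Immediate-early and heat shock genes had 1 of 19 called higher and 1 lower (0 to 2 higher and 1 lower). Pericyte and smooth muscle genes had 2 of 14 higher and none lower (1 to 2 higher and 0 to 1 lower). Basement membrane genes had 1 of 14 higher and 1 lower (0 to 3 higher and 0 to 2 lower).

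Of 15 genes that mature beta cells keep silent, 4 were called higher and 3 lower (4 to 5 higher and 0 to 2 lower). Among 18 pancreatic progenitor factors 1 was called higher and 4 lower (0 to 2 higher and 2 to 5 lower). The 6 acinar transcription factors had 1 higher and 1 lower (1 higher and 1 to 2 lower). Adhesion and mesenchymal transition genes, Met among them, had 3 of 26 higher and 4 lower (1 to 3 higher and 1 to 4 lower). VEGF, angiopoietin and PDGF ligand genes, Fgf1 among them, had 3 of 19 higher and 3 lower (2 to 3 higher and 0 to 2 lower). Signalling families were split as well, with 5 higher and 3 lower of 26 TGF-beta, activin and BMP genes (5 to 6 higher and 2 to 4 lower), 3 higher and 4 lower of 32 Wnt, Notch and hedgehog genes (2 to 4 higher and 2 to 5 lower), and 4 higher and 2 lower of 21 EGF receptor and FGF genes (4 to 6 higher and 1 to 3 lower).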
